A study of Homo sapiens with 32 samples.

Results

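The liprins are a family of 6 genes, PPFIA1, PPFIA2, PPFIA3 and PPFIA4 (liprin-α1 to liprin-α4) and PPFIBP1 and PPFIBP2 (liprin-β1 and liprin-β2), among the 19815 protein-coding genes of the count tables. The 6 rows were taken by gene symbol and coding class, so every member entered whatever its count. PPFIA4 was selected on its measured fold change in low oxygen in both cell lines, and its response to low oxygen is therefore described here without a test. The other 5 members entered through the family name.

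Liprins are cytoplasmic scaffold proteins that were named for binding to receptor tyrosine phosphatases of the LAR type. In neurons the α-liprins organise the presynaptic active zone, where synaptic vesicles fuse. In epithelial and carcinoma cells liprin-α1 and liprin-β1 lie near the cell edge with ERC1 and the LL5 proteins, at the cortical platforms where microtubules meet focal adhesions, and are known for roles in adhesion turnover and cell migration.

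RNA-Seq was carried out on MCF10A, an immortalised and non-tumourigenic breast epithelial line, and on MDA-MB-231, a triple-negative breast carcinoma line. Cells were kept in normoxia (N, 21% O2), in hypoxia (H, 0.5% O2 for 24 h), in normoxia with PP242 (NPP) or in hypoxia with PP242 (HPP), where PP242, an inhibitor of the mTOR kinase dissolved in DMSO, was added at 2.5 µM for 3 h. Total mRNA (T) and mRNA from the polysomal part of a sucrose gradient (P, light and heavy polysomes from 2 ribosomes upward) were sequenced with 2 biological replicates, which gave 8 groups and 16 libraries per line. Each line is 1 established culture, so differences between MCF10A and MDA-MB-231 are differences between these cultures and not between kinds of tissue.

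PPFIA4 lies on chromosome 1 at chr1:203026491-203078740 on the plus strand (GRCh38, GENCODE v44), with 30 exons and 6508 nt in its canonical transcript. Its promoter is printed because PPFIA4 was the member that moved with oxygen, and that of PPFIBP2 because it holds the same letters and belongs to a member whose response to hypoxia did not pass the test. All 6 members were found by symbol in the RefSeq promoter table. The windows, on GRCh38.p14, are read 5′ to 3′ from 250 bases before to 50 after the start, at chr1:203026241-203026540 and chr11:7513749-7514048, both on the plus strand. Capitals mark CACGTG, which contains the ACGTG core that hypoxia-inducible factors recognise on either strand, and GCGTG.
PPFIA4 promoter: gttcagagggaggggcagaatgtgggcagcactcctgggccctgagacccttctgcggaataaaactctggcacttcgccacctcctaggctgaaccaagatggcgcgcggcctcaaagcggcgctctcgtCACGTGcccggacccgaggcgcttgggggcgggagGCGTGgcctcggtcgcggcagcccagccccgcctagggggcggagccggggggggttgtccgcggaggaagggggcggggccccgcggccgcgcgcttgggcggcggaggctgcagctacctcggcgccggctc
PPFIBP2 promoter: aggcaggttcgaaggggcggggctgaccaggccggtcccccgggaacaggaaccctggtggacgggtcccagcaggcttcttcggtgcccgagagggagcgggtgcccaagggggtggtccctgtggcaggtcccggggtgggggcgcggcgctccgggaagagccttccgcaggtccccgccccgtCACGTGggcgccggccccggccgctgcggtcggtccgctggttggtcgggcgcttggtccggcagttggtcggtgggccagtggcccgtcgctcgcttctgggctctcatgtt

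CACGTG reads the same on both strands, so the 1 CACGTG of each window counts as 2 overlapping ACGTG matches. Among 35116 promoter windows of the same 300 bases, 7.26% held CACGTG, 21.4% held ACGTG and 36.5% held GCGTG on either strand. The PPFIA4 window had GCGTG as well, and the PPFIBP2 window did not. PPFIBP2 has 5 windows in the table, and the printed one is the only one of them with CACGTG. In PPFIA1 and in the first window of PPFIA2 a single ACGTG was found without CACGTG, beside 1 and 2 GCGTG, the PPFIA3 window held GCGTG only, and in the PPFIBP1 window none of the letters was found. A match describes the letters of the window and says nothing about binding in these cells.

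The libraries held 18340916 to 46032327 counts. CA9, a carbonic anhydrase induced by HIF1α, ran from 8.86 to 29.1 CPM (counts scaled to library size by TMM over all 32 libraries) across the 8 libraries of MCF10A kept in normoxia, against 577 to 1540 CPM across the 8 kept in hypoxia. For MDA-MB-231 the corresponding spans were 0.0476 to 0.917 CPM and 11.1 to 31 CPM, so the oxygen labels held in every library. The line markers were less uniform. The basal keratins KRT5, KRT14 and KRT17 had medians of 2120, 1690 and 241 CPM in MCF10A and of 0, 0.235 and 2.11 CPM in MDA-MB-231, but the epithelial markers CDH1 and TP63 were near 0 in MCF10A as well, with highest values of 0.424 and 0.265 CPM. CDH1 and TP63 thus go against the label MCF10A while the keratins do not, so the state of this culture is in doubt, and each comparison of lines is one of the cultures labelled MCF10A and MDA-MB-231. The mesenchymal markers VIM, ZEB1 and AXL had medians of 2950, 21.2 and 388 CPM in MCF10A and of 3520, 53.1 and 744 CPM in MDA-MB-231. ESR1 and PGR were at 0.13 and 0 CPM in MCF10A and at 0.125 and 0.205 CPM in MDA-MB-231, and ERBB2 at 140 and 33.2 CPM. Of the neuronal markers, RBFOX3 and SNAP25 had medians of 0 in MCF10A and of 0 and 0.101 CPM in MDA-MB-231, and SYT1 of 2.42 and 5.48 CPM. The blood marker PTPRC stood at 0.0359 and 0.524 CPM, and the endothelial marker PECAM1 at 0.8 and 1.17 CPM.

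Libraries of MCF10A differed in how well long transcripts were recovered, which bears on the liprins because their canonical transcripts run from 3328 to 6508 nt. The measure was the median deviation of transcripts over 5000 nt minus that of transcripts under 1500 nt, on the log2 scale. It was −1.08 in N P replicate 1, −0.712 in H P replicate 1, −1.43 in NPP T replicate 2 and −0.727 in HPP T replicate 2. The next lowest MCF10A library stood at −0.129, and the MDA-MB-231 libraries ran from −0.388 to 0.306. For part of the MCF10A values that rest on these 4 libraries, the value without them is given as well. Omitting them leaves N P, H P, NPP T and HPP T of MCF10A with 1 library each, so any p-value given without them assumes that the lone library varies like the other groups.

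PPFIA4 mRNA was scarce in normoxia and higher in hypoxia in both lines. In total mRNA of MCF10A it stood at 2.36 and 2.39 CPM in N, 99.1 and 55.5 in H, 1.30 and 0.668 in NPP, and 69.4 and 30.5 in HPP. In polysomal mRNA the values were 0.788 and 1.41 CPM in N, 43.9 and 45.5 in H, 0.505 and 0.497 in NPP, and 46.7 and 28.8 in HPP. All 8 hypoxic libraries lay above all 8 normoxic ones, and the lowest hypoxic value was 12 times the highest normoxic value.

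In MDA-MB-231 the gene was lower in N, H and HPP, while the NPP values of the lines overlapped in both fractions. Total mRNA held 0.654 and 0.523 CPM in N, 9.55 and 6.29 in H, 0.684 and 0.917 in NPP, and 6.48 and 10.8 in HPP. Polysomal mRNA held 0.192 and 0.255 CPM in N, 6.18 and 8.88 in H, 0.484 and 0.536 in NPP, and 9.70 and 8.53 in HPP. Again no hypoxic library overlapped a normoxic one, with a ratio of 6.74 between the closest pair, although the polysomal N value rests on 5 and 9 counts.

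**Figure D1:**
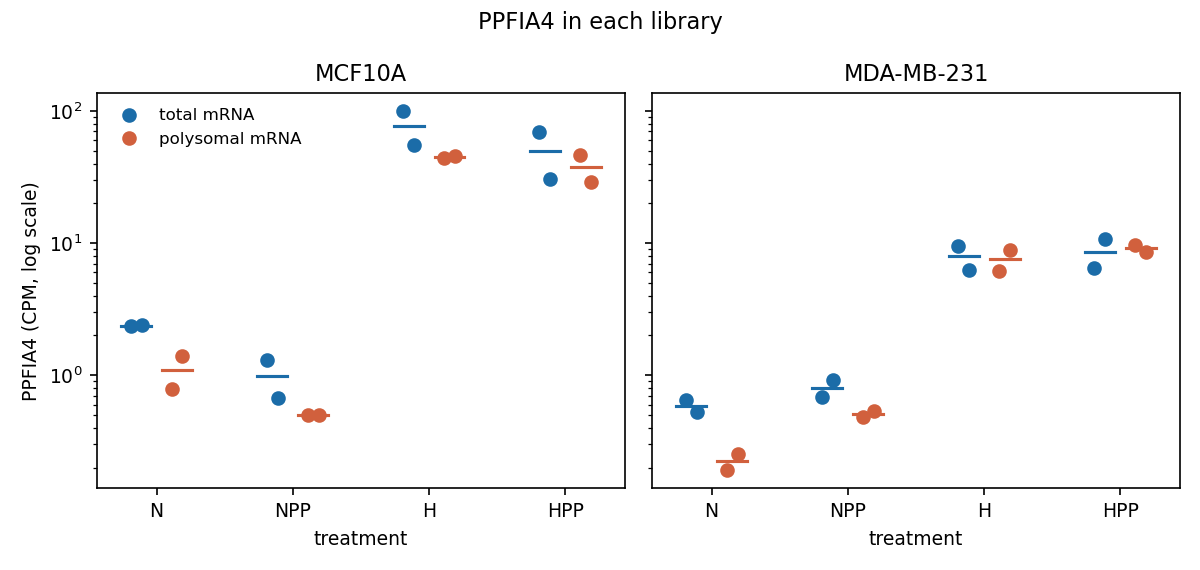
PPFIA4 in each of the 32 libraries, as CPM on a log axis by treatment, with 1 panel per line; each point is 1 library, coloured by total or polysomal mRNA. The H and HPP libraries run from 28.8 to 99.1 CPM in MCF10A and from 6.18 to 10.8 CPM in MDA-MB-231, above every N and NPP library of their line.

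The log2 fold change (log2FC) of PPFIA4 in H was 5.07 (SE 0.56, 33.5-fold) in total and 5.25 (SE 0.57, 38.1-fold) in polysomal mRNA of MCF10A. In MDA-MB-231 it was 3.71 (SE 0.34, 13.1-fold) in total and 5.04 (SE 0.39, 32.8-fold) in polysomal mRNA. In HPP, which shares its N libraries with H, it was 4.44 (SE 0.54) and 5.04 (SE 0.57) in MCF10A and 3.79 (SE 0.34) and 5.27 (SE 0.39) in MDA-MB-231. Without the 4 libraries low in long transcripts the MCF10A values were 5.07 and 4.93 in H and 4.95 and 4.73 in HPP. When any 1 library was left out they ran from 3.74 (HPP T) to 5.71 (H P) in MCF10A and from 3.38 (H T) to 5.51 (HPP P) in MDA-MB-231. With all libraries, each log2FC compares 2 with 2, and its SE comes from the fit of all 16 libraries of the line. The values rest on the contrast that picked the gene or share its N libraries, so they carry no p-value. In bulk RNA, more cells with the transcript and more transcript per cell cannot be told apart.

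Ordered by mean level over the 16 groups, PPFIA4 was highest in MCF10A H T (77.3 ± 30.8 CPM, SD, n = 2), followed by HPP T (50.0 ± 27.6), H P (44.7 ± 1.18) and HPP P (37.7 ± 12.7), and each of these 4 neighbours overlapped the next within its SD. The 4 hypoxic groups of MDA-MB-231 came next, from 9.11 ± 0.828 CPM in HPP P to 7.53 ± 1.91 in H P, and these too overlapped. The normoxic groups stood from 2.38 ± 0.022 CPM in MCF10A N T down to 0.224 ± 0.044 in MDA-MB-231 N P.

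Within the family, the main α-liprin in total mRNA of MCF10A was PPFIA1 in N and PPFIA4 in H. Levels of different genes were compared as CPM per kb of canonical transcript. In normoxic total mRNA of MCF10A, PPFIA1 made up 57.9% of the summed liprin level, PPFIBP1 31.9%, PPFIA3 7.73% and PPFIA4 2.09%. In H, PPFIA4 made up 45.5%, ahead of PPFIA1 at 27.2%, and among the α-liprins alone its share went from 3.08% to 58.3%. In polysomal mRNA its share of the family was 1.16% in N and 33.3% in H, beside 36% for PPFIA1, and among the α-liprins the shares in H were 43.7% and 47.3%. In HPP P PPFIA4 held 41.5% of the α-liprin level and PPFIA1 51.9%. In both groups the order of the 2 genes turned between replicates, with PPFIA4 ahead in replicate 1 and PPFIA1 in replicate 2.

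MDA-MB-231 kept PPFIA1 as its main liprin mRNA in both conditions, at 67.1% of the family in N and 62.9% in H in total mRNA. PPFIA4 moved from the lowest rank of the 6 members in N (0.428%) to 5.81% in H, beside PPFIBP2 at 5.76%, and the order of these genes turned between the H replicates. In HPP its share was 33.1% in total mRNA of MCF10A and 5.71% in MDA-MB-231. PPFIA4 was used by the choice of the gene, so these shares are descriptions.

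**Figure D2:**
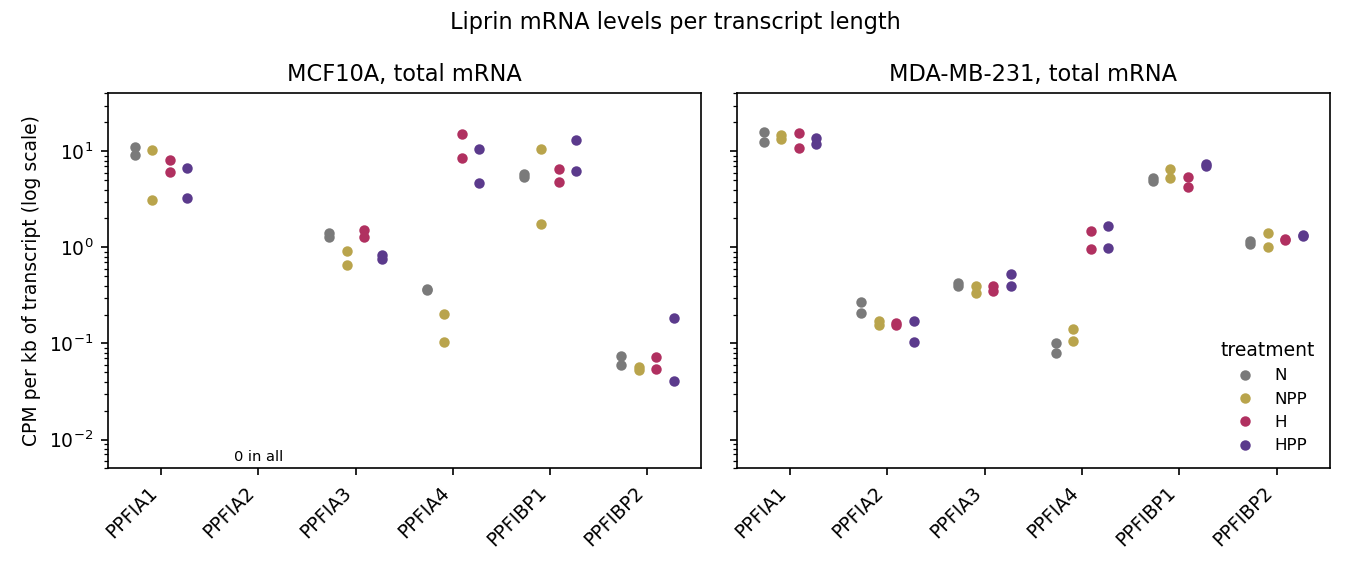
CPM per kb of transcript (log axis) of the 6 liprin genes in total mRNA of both lines; each point is 1 library, coloured by treatment, and genes at 0 are marked as such. PPFIA4 is the member whose H and HPP points stand apart from its N and NPP points, while PPFIA1 and PPFIBP1 lie near the top in every treatment.

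The comparisons of PPFIA4 with PP242 at the same oxygen, and between lines, reuse N or H libraries that picked the gene, so their values are descriptions as well. In total mRNA of MCF10A the PPFIA4 log2FC in NPP was −1.19 (SE 0.52), and in polysomal mRNA −1.13 (SE 0.55). Both NPP libraries lay below both N libraries in each fraction, which was so for 19.8% of all tested genes in total and 23.5% in polysomal mRNA. In MDA-MB-231 the values were 0.40 (SE 0.39) and 1.13 (SE 0.48). There both NPP libraries lay above both N libraries, as for 21.3% and 23.9% of all tested genes. Without the 4 libraries low in long transcripts the PPFIA4 values of MCF10A were −0.81 and −1.44.

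Against hypoxia alone, the PPFIA4 log2FC in HPP was −0.62 in total mRNA (95% interval −1.65 to 0.40) and −0.21 in polysomal mRNA of MCF10A (−1.24 to 0.81). In MDA-MB-231 it was 0.08 (−0.49 to 0.65) and 0.23 (−0.34 to 0.80). The MCF10A value in total mRNA was −0.12 without the 4 libraries low in long transcripts, and −1.37 without HPP T replicate 1. The sign was not stable in HPP P of MCF10A, where the value was 0.12 without HPP P replicate 2, nor in HPP T of MDA-MB-231, where it was −0.30 without HPP T replicate 2.

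Translational efficiency (Te), the log2FC in polysomal minus that in total mRNA, was 1.33 (SE 0.56) for PPFIA4 in H and 1.48 (SE 0.56) in HPP of MDA-MB-231, with z-scores over all tested genes of 1.97 and 2.03. In MCF10A it was 0.18 (SE 0.68) and 0.59 (SE 0.69), and without the 4 libraries low in long transcripts it was −0.14 and −0.22, while the value in HPP was 1.36 without HPP T replicate 1. The MDA-MB-231 values rest on the 5 and 9 counts of the N polysomal libraries. In NPP the PPFIA4 Te was 0.73 (SE 0.62) in MDA-MB-231 and 0.07 (SE 0.79) in MCF10A, and −0.62 in MCF10A without the 4 libraries. No test is given for these values, and the difference in Te between the lines was not tested.

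The lines stood apart in PPFIA4 before any treatment. In N, PPFIA4 was 3.97-fold lower in MDA-MB-231 than in MCF10A in total mRNA (log2FC −1.99, SE 0.46) and 4.88-fold lower in polysomal mRNA (log2FC −2.29, SE 0.54). No library of one line overlapped the other in N, and without the 4 libraries low in long transcripts the log2FC of PPFIA4 was −1.91 and −2.61. The rise in hypoxia differed between lines by −1.29 (SE 0.61) in total mRNA and by −0.28 (SE 0.73) in polysomal mRNA, where a negative value is a smaller rise in MDA-MB-231. The polysomal value was 0.027 without the 4 libraries. Each line was counted in its own table, so line and table cannot be told apart.

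No change of another liprin was called in hypoxia. PPFIA1, the broadly expressed α-liprin whose gene lies in a region of chromosome 11 that is often amplified in breast carcinomas, stood at 58.3 and 47.9 CPM in N and at 42.3 and 32.1 CPM in H in total mRNA of MCF10A. Both H libraries lay below both N libraries, as for 28.5% of all tested genes, and the log2FC of −0.48 (SE 0.50, 95% interval −1.57 to 0.61) did not pass the test (adjusted p = 0.938, edgeR's quasi-likelihood test). In MDA-MB-231 PPFIA1 was at 83.1 and 65.5 CPM in N and 81.0 and 57.3 CPM in H, which overlapped, with a log2FC of −0.13 (SE 0.17, 95% interval −0.48 to 0.23).

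PPFIBP1, the β-liprin that pairs with liprin-α1, had log2FC values in H of 0.06 (SE 0.71) and 0.34 (SE 0.71) in total and polysomal mRNA of MCF10A, the second 0.16 without the 4 libraries low in long transcripts, and of −0.11 (SE 0.19) and −0.27 (SE 0.19) in MDA-MB-231. PPFIA3, an α-liprin best known from brain, had values of 0.08 (SE 0.25) and 0.27 (SE 0.26) in MCF10A, the second 0.43 without those libraries, and −0.14 (SE 0.25) and 0.24 (SE 0.24) in MDA-MB-231. PPFIBP2 had values of −0.06 (SE 0.84) and 0.82 (SE 0.87) in MCF10A, on 2 to 23 counts per library, and 0.08 (SE 0.25) and 0.02 (SE 0.25) in MDA-MB-231. PPFIA2 had no counts in any of the 16 MCF10A libraries, and in MDA-MB-231, with 18 to 39 counts per library, its values were −0.58 (SE 0.34) and −0.45 (SE 0.35). Both H libraries of PPFIA2 lay below both N libraries in each fraction, as for 18.5% and 21% of all tested genes. Both H libraries lay above both N libraries for PPFIA3 and PPFIBP2 in polysomal mRNA of MCF10A, as for 19.8% of all tested genes, and for PPFIBP2 in total mRNA of MDA-MB-231, as for 19.5%.

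Of the 5 members other than PPFIA4, 4 passed the filter on low counts in MCF10A and 5 in MDA-MB-231, and 0 were called in H by edgeR's quasi-likelihood test, with 0.05 as the limit of the adjusted p. The share of all tested genes called was 1.54% in total and 1.49% in polysomal mRNA of MCF10A, and 1.27% and 2.29% in MDA-MB-231. At an unadjusted p under 0.05, which 10.9% to 17.2% of all tested genes passed, the count of members was also 0 in each of these 4 comparisons, and DESeq2 called 0. At such background shares a count of 0 among 4 or 5 genes is what most small groups of genes would give. The 95% intervals in MDA-MB-231 held every change of the other 5 members between −1.30 and 0.76. The values of PPFIA4, which was picked for its rise, were 3.71 and 5.04 there. In MCF10A the SEs of PPFIBP1 and PPFIBP2 were larger, as given above, so their intervals reach beyond these bounds.

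**Figure D3:**
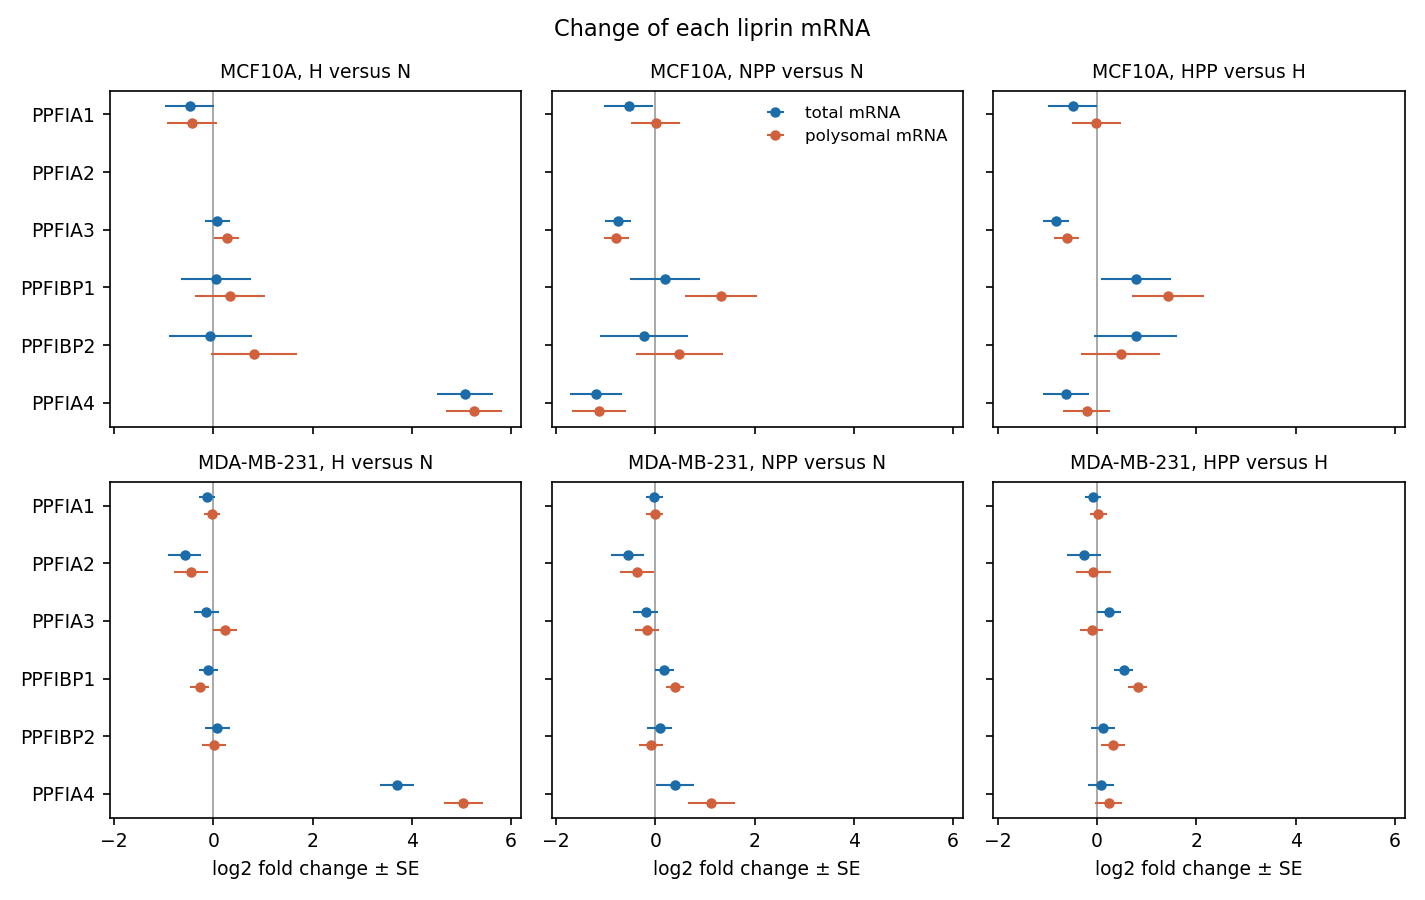
Log2 fold change with its SE (horizontal bars) of each liprin gene for H versus N, NPP versus N and HPP versus H, in total (blue) and polysomal (orange) mRNA; the top row is MCF10A and the bottom row MDA-MB-231, and PPFIA2 has no point in MCF10A because it had no counts there. PPFIA4 in H stands between 3.71 and 5.25, while the points of the other members lie between −0.58 and 0.82 in the same comparison.

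The difference between lines in the response to hypoxia was called for 0 of the 4 members that passed the filter in both lines (PPFIA1, PPFIA3, PPFIBP1 and PPFIBP2), with values from −0.18 to 0.41 in total and from −0.89 (PPFIBP2) to 0.33 (PPFIA1) in polysomal mRNA. The share called was 0.266% of all tested genes in total and 0.329% in polysomal mRNA, and 0.299% and 0.38% of the genes that passed in both lines. Over the 8 member tests the count was 0 at an unadjusted p under 0.05, which 7.47% and 6.49% of all tested genes passed, and 0 by DESeq2. PPFIA2 was at 0 in MCF10A, and its fitted values of −0.56 (SE 1110) and −0.46 (SE 919) carry no information.

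In HPP against N, where 14.9% of all tested genes were called in total and 22.2% in polysomal mRNA of MCF10A, and 13.2% and 19.4% in MDA-MB-231, 0 of the other liprins were called by edgeR's quasi-likelihood test. At an unadjusted p under 0.05, which 28.8% to 36.2% of all tested genes passed, there were 5 over the 18 member tests of the 4 comparisons, PPFIA3 and PPFIBP1 once each in MCF10A, and PPFIA2 once and PPFIBP1 in both fractions in MDA-MB-231. DESeq2 called PPFIBP1 in polysomal mRNA of each line. PPFIA1 in total mRNA of MCF10A stood at 35.1 and 17.1 CPM in HPP, below both N libraries, as for 33.6% of all tested genes, with a log2FC of −0.98 (SE 0.50, adjusted p = 0.231 by edgeR's quasi-likelihood test), and of −0.51 without the 4 libraries low in long transcripts (adjusted p = 0.247). Total libraries of MCF10A with the same replicate number deviated together, and with a replicate block within each fraction PPFIA1 was called (log2FC −1.11, adjusted p = 0.0283 by edgeR), among 3484 genes called in place of 1956. With the same block PPFIBP1 of MDA-MB-231 was called in total (log2FC 0.43, adjusted p = 0.0458) and polysomal mRNA (0.57, adjusted p = 0.00985) by edgeR. Without a block these values were 0.43 and 0.55, the second with an adjusted p of 0.0547 by edgeR's quasi-likelihood test.

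With PPFIA4 left out, PPFIBP1 was the only liprin called within a line in the fit of all 16 libraries without a block or offset. In polysomal mRNA of MDA-MB-231 it stood at 20.7 and 27.3 CPM in H and at 41.3 and 46.2 CPM in HPP, and the groups did not overlap, with HPP above H as for 33.2% of all tested genes. The increase was 1.77-fold (log2FC 0.82, SE 0.19, 95% interval 0.42 to 1.23, adjusted p = 0.0127 by edgeR's quasi-likelihood test with Benjamini-Hochberg adjustment). This was 1 of 5 members against 11.5% of all tested genes called in that comparison, a share near the background. The call was lost without H P replicate 1 (log2FC 0.65, adjusted p = 0.0983), without HPP P replicate 1 (0.89, adjusted p = 0.0642) and without HPP P replicate 2 (0.75, adjusted p = 0.0997), and it held in the other 8 of 11 alternatives.

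The neighbouring comparisons of PPFIBP1 did not pass the test without a block. In total mRNA of MDA-MB-231 the gene stood at 32 and 25.5 CPM in H and at 43.9 and 41.7 CPM in HPP, with a log2FC of 0.53 (SE 0.19, adjusted p = 0.135), and of 0.54 with an adjusted p of 0.034 with a replicate block within each fraction. In normoxia it stood at 23.6 and 34.7 CPM in N P and at 37.8 and 40.1 CPM in NPP P, with a log2FC of 0.40 (SE 0.19, adjusted p = 0.379). In each of these pairs both PP242 libraries lay above both libraries without PP242, as did 24.1% of all tested genes in the first and 23.9% in the second.

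In MCF10A, PPFIBP1 varied widely between replicates. Polysomal values were 11 and 32.4 CPM in N, 19.5 and 38.3 in H, 52.2 and 54.3 in NPP, and 59.0 and 94.7 in HPP. In total mRNA they were 34.6 and 32.1 CPM in N, 39.3 and 28.4 in H, 63.7 and 10.5 in NPP, and 78.3 and 37.3 in HPP. The lower value in N P, H P, NPP T and HPP T each belongs to a library low in long transcripts. For HPP against N in polysomal mRNA the log2FC was 1.77 (SE 0.73, adjusted p = 0.104 by edgeR's quasi-likelihood test), with a replicate block within each fraction it was 1.88 with an adjusted p of 0.013, and without these 4 libraries it was 1.22 with an adjusted p of 0.024, where N P is 1 library of 32.4 CPM. In total mRNA it was 0.84 (SE 0.71, adjusted p = 0.487), and 1.31 with an adjusted p of 0.0165 without them, where HPP T is 1 library of 78.3 CPM, against 0.22 without HPP T replicate 1 (adjusted p = 0.882). For HPP against H in total mRNA it was 0.78, and 1.25 with an adjusted p of 0.046 without them, against 0.11 without HPP T replicate 1 (adjusted p = 0.96). In polysomal mRNA both HPP libraries lay above both H libraries, as for 25.4% of all tested genes, with a log2FC of 1.43 (SE 0.72, adjusted p = 0.289), and of 1.07 with an adjusted p of 0.0744 without the 4 libraries. With an offset for transcript length the polysomal value against N was 1.65 with an adjusted p of 0.0161.

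**Figure D4:**
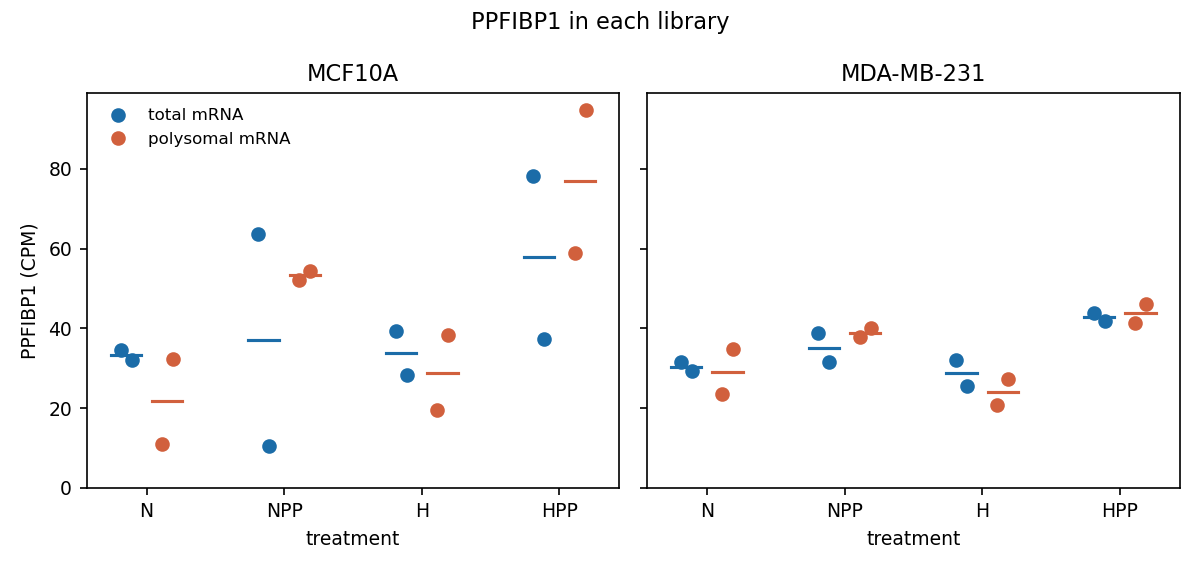
PPFIBP1 in each of the 32 libraries, as CPM by treatment, with 1 panel per line; each point is 1 library, coloured by total or polysomal mRNA. In MDA-MB-231 the HPP P points at 41.3 and 46.2 CPM lie above the H P points at 20.7 and 27.3 CPM, and in MCF10A the replicates of NPP T lie as far apart as 10.5 and 63.7 CPM.

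PPFIA3 showed low values with PP242 in MCF10A that did not pass the test. In total mRNA it stood at 6.50 and 5.90 CPM in N and 2.99 and 4.20 in NPP, and at 5.88 and 7.03 CPM in H and 3.46 and 3.81 in HPP. In polysomal mRNA it stood at 5.52 and 4.79 CPM in N and 2.97 and 2.95 in NPP, and at 6.25 and 6.83 CPM in H and 3.63 and 4.82 in HPP. The PP242 libraries were lower in all 4 pairs of groups, without overlap, as were 19.8% (NPP T), 23.5% (NPP P), 23.5% (HPP against H in total mRNA) and 27.5% (HPP against H in polysomal mRNA) of all tested genes. The log2FC was −0.75 (adjusted p = 0.334) and −0.78 (adjusted p = 0.191) in NPP, and −0.82 (adjusted p = 0.114) and −0.61 (adjusted p = 0.195) in HPP against H, by edgeR's quasi-likelihood test. Without the 4 libraries low in long transcripts it was −0.999 and −0.64 in NPP, and −0.84 and −0.63 in HPP against H, with adjusted p from 0.164 to 0.284. In MDA-MB-231, where PPFIA3 ran from 1.55 to 2.52 CPM, the 4 values lay between −0.19 and 0.25.

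Over all comparisons of PP242 at the same oxygen, 1 call of a liprin other than PPFIA4 was made, that of PPFIBP1. The share of all tested genes called in NPP was 0.648% in total and 0.823% in polysomal mRNA of MCF10A, and 0.555% and 1.95% in MDA-MB-231. In HPP against H it was 3.74% and 6.5% in MCF10A, and 3.78% in total mRNA of MDA-MB-231. At an unadjusted p under 0.05, which 9.54% to 26.6% of all tested genes passed, there were 6 among 36 member tests without PPFIA4, and DESeq2 called 1.

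Translational efficiency was called for 0 of the 5 liprins other than PPFIA4. In MCF10A 0% of all genes were called in H, 0% in HPP and 0% in NPP by edgeR's quasi-likelihood test, with 23, 433 and 296 genes at an unadjusted p under 0.05 and 0, 127 and 91 called by DESeq2. In MDA-MB-231 the shares were 0.0148%, 0.696% and 0.34%. Over the 27 member tests the count was 0 at an unadjusted p under 0.05, which 0.175% to 3.36% of all tested genes passed, and 0 by DESeq2. With a replicate block for total and polysomal mRNA of one culture it was also 0. The widest intervals were those of PPFIBP2 in MCF10A, where a Te of up to 3.52 on the log2 scale in H was within the interval.

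In normoxia PPFIA3 and PPFIBP2 differed between MDA-MB-231 and MCF10A in each fraction, 2 of the 4 members that passed the filter in both lines. The share called was 36.5% in total and 41.6% in polysomal mRNA among the genes that passed in both lines, and 40.7% and 45.4% of all tested genes, so the count is near the background. PPFIBP2, the β-liprin with the lowest level in MCF10A, stood at 0.245 and 0.199 CPM in MCF10A N T and at 3.86 and 3.62 CPM in MDA-MB-231 N T. It was 16.7-fold higher in MDA-MB-231 in total (log2FC 4.06, SE 0.56, adjusted p = 5.48e-06) and 25.3-fold higher in polysomal mRNA (log2FC 4.66, SE 0.59, adjusted p = 1.62e-06) by edgeR's quasi-likelihood test. The size of these folds rests on few reads in MCF10A, 8 counts in each N T library and 4 and 7 in N P.

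PPFIA3 was lower in MDA-MB-231, at 1.96 and 1.81 CPM against 6.50 and 5.90 CPM in N T. The difference was 3.28-fold in total (log2FC −1.71, SE 0.24, adjusted p = 5.86e-06) and 2.78-fold in polysomal mRNA (log2FC −1.47, SE 0.24, adjusted p = 3.27e-05) by edgeR's quasi-likelihood test. PPFIA2, which passed the filter through MDA-MB-231 alone and is left out of that count, had 0 counts in MCF10A and stood at 1.18 and 1.52 CPM in MDA-MB-231 N T, at least 32-fold higher than a floor of 3 counts over the MCF10A group, and at least 22.1-fold higher in polysomal mRNA. ACSS3, an acyl-CoA synthetase gene, overlaps PPFIA2 on the opposite strand and had 0 counts in MCF10A and 260 to 880 per library in MDA-MB-231. The kit and the counting are not stated to use strand, so reads from any sequence that the 2 genes share cannot be told apart. PPFIA1 (log2FC 0.48, SE 0.38, adjusted p = 0.336) and PPFIBP1 (−0.13, SE 0.55, adjusted p = 0.871) did not pass the test in total mRNA. PPFIA1 was called there without the 4 libraries low in long transcripts (0.55, adjusted p = 0.0238 by edgeR) and in a fit of the compared libraries alone (0.57, adjusted p = 0.0131), but not by the other alternatives.

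Over all 16 libraries of a line, PPFIA1 ran from 16.5 to 60.9 CPM in MCF10A with a median of 42.1, and from 57.3 to 83.1 CPM in MDA-MB-231 with a median of 71.4. PPFIBP1 ran from 10.5 to 94.7 CPM with a median of 37.8, and from 20.7 to 46.2 CPM with a median of 33.4. The lowest PPFIA1 values of MCF10A, 16.5 and 17.1 CPM, belong to NPP T and HPP T replicate 2, both among the libraries low in long transcripts. PPFIA1 and PPFIBP1 were the top members per kb in N of both lines, and their SDs did not overlap in total mRNA of either line.

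The proteins that liprins bind were examined next through 4 lists with 35 genes, of which 23 were tested in MCF10A and 27 in MDA-MB-231. In H 0 of them were called in either line or fraction by edgeR's quasi-likelihood test, with 8 of 100 tests at an unadjusted p under 0.05 over the 4 comparisons, beside the 1.27% to 2.29% called and 10.9% to 17.2% at that p over all tested genes, and 3 calls by DESeq2, of KANK1 in both fractions and PTPRF in total mRNA of MCF10A. PTPRF, the LAR receptor itself and the most abundant of the phosphatases per kb, had mean levels of 52.8 CPM in N T and 130 CPM in H T of MCF10A, with a log2FC of 1.34 that did not pass edgeR's test, and of 166 and 183 CPM in MDA-MB-231.

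In HPP against N, 3 partners were called in polysomal mRNA of MCF10A. PTPRF rose (log2FC 1.31, SE 0.42, adjusted p = 0.045), as did PHLDB2, the LL5β protein of cortical platforms (1.80, SE 0.54, adjusted p = 0.034), while LIN7B, a small adaptor that joins CASK, fell (−2.31, SE 0.65, adjusted p = 0.0263). In MDA-MB-231 KANK1, which links talin to the cortical platforms, fell in total mRNA (−1.22, SE 0.32, adjusted p = 0.0219), from a mean of 4.64 CPM in N to 2.07 in HPP. PHLDB2 rose in polysomal mRNA there (0.49, SE 0.15, adjusted p = 0.0375). All are by edgeR's quasi-likelihood test with Benjamini-Hochberg adjustment. The counts of 3 of 23 and of 1 of 27 in each fraction of MDA-MB-231 stand against the background shares of 22.2%, 13.2% and 19.4% given above. In total mRNA of MCF10A 0 of 23 were called, against 14.9% of all tested genes. Over the 8 comparisons of H or HPP with N, 23 of 200 partner tests had an unadjusted p under 0.05, beside 10.9% to 36.2% of all tested genes. DESeq2 made 11 calls over these tests and edgeR 5. Without the 4 libraries low in long transcripts the polysomal values of MCF10A were 1.02 for PTPRF (adjusted p = 0.0609 by edgeR, so its call was lost), 1.47 for PHLDB2 (adjusted p = 0.0203) and −1.68 for LIN7B (adjusted p = 0.0325), with N P as 1 library.

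Against hypoxia alone, PP242 lowered LIN7B in polysomal mRNA of MCF10A (log2FC −2.45, adjusted p = 0.0471) and KANK1 in total (−1.26, adjusted p = 0.0384) and polysomal mRNA (−1.13, adjusted p = 0.0315) of MDA-MB-231, by edgeR's quasi-likelihood test. These were 1 of 23, 1 of 27 and 1 of 27 partners, beside the 6.5%, 3.78% and 11.5% of all tested genes given above, with 3, 2 and 2 partners at an unadjusted p under 0.05 and 3, 1 and 1 called by DESeq2. In total mRNA of MCF10A 0 were called by edgeR, with 3 at an unadjusted p under 0.05 and 2 called by DESeq2. These comparisons share their HPP libraries with those against N, and without the 4 libraries low in long transcripts the LIN7B call was lost (−1.53, adjusted p = 0.0877 by edgeR). In NPP and in Te 0 partners were called by edgeR. At an unadjusted p under 0.05 there were 10 of 100 tests over the 4 NPP comparisons, beside 9.54% to 13.6% of all tested genes, and 0 of 150 over the 6 of Te, beside 0.175% to 3.36%, and DESeq2 called 1 and 0. In total mRNA of MCF10A the median log2FC in H was 0.69 over the 2 LAR-type phosphatases tested. For the cortical and focal adhesion list it was 0.23 over 11 genes, and for the adaptors and motors −0.03 over 7. For the active zone list it was 0.43 over 3 genes, beside −0.03 over all tested genes. Of the 2 phosphatases, PTPRF had means of 52.8 and 130 CPM in N T and H T, and PTPRS of 16.4 and 16.6 CPM. In MDA-MB-231 the list medians, in the same order, were 0.005, 0.02, −0.11 and −0.22 over 2, 10, 8 and 7 genes, beside −0.02.

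Of the 9 genes of the presynaptic active zone list, 3 passed the filter in both lines, and RIMS2 alone of these was called between lines in N, higher in MDA-MB-231 in total as in polysomal mRNA by edgeR's quasi-likelihood test. RIMS2, a vesicle priming scaffold and the most abundant member per kb, had a median of 0.449 CPM over the MCF10A libraries and of 28.8 CPM over those of MDA-MB-231. RIMS1 and TSPOAP1 had 0 counts in all 16 MCF10A libraries and medians of 5.3 and 0.318 CPM in MDA-MB-231, and PCLO and ERC2 had medians of 0 against 3.59 and 1.13 CPM. These 4 genes passed the filter through MDA-MB-231 alone, so they are given as levels. Over the 4 lists 7 of the 22 partners that passed in both lines were called between lines in total mRNA, 3 higher and 4 lower in MDA-MB-231, and 11 of 22 in polysomal mRNA, 6 higher and 5 lower, beside the background shares of 36.5% and 41.6% given above. The neuronal markers RBFOX3 and SNAP25 were at or near 0 in both lines, and SYT1 was not, as given above. TLN1, the talin that links integrins to actin, and GIT1, an adaptor of ARF signalling that binds liprin-α, were the most abundant members of their lists per kb.

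Established targets of hypoxia served as a reference for PPFIA4. Of 10 tested, 8 rose in total and 8 in polysomal mRNA of MCF10A in H, and 7 and 7 in MDA-MB-231, by edgeR's quasi-likelihood test. Of all tested genes, 1.27% to 2.29% were called in these comparisons, in either direction. The median log2FC of the 10 targets was 2.22 in total and 2.20 in polysomal mRNA of MCF10A, and 2.36 and 2.38 in those of MDA-MB-231. In HPP, 8 and 9 rose in MCF10A, and 7 in each fraction of MDA-MB-231, beside 13.2% to 22.2% of all tested genes called. CA9 had a log2FC of 6.20 in HPP T of MCF10A (SE 0.49, adjusted p = 7.28e-05), EGLN3, a HIF prolyl hydroxylase, 6.56 in H P of MCF10A (SE 0.53, adjusted p = 0.000126), and NDRG1 5.16 in HPP P of MCF10A (SE 0.41, adjusted p = 5.02e-05). These values were 5.90, 7.25 and 4.88 without the 4 libraries low in long transcripts, and the ANKRD37 call in H P of MCF10A was lost (log2FC 1.74, adjusted p = 0.0547 by edgeR). ANKRD37 had 3.30 in HPP P of MDA-MB-231 (SE 0.20, adjusted p = 4.38e-07). BNIP3, a mitophagy receptor and the most abundant of the 10 per kb, had mean levels of 151 CPM in N T and 871 CPM in H T of MCF10A and of 137 and 866 CPM in MDA-MB-231.

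The genes whose pattern was most like that of PPFIA4 were found by the Pearson correlation of log2 CPM, centred within line and fraction, over the 32 libraries and 12373 genes. They were PFKFB4, which sets the level of a glycolytic activator (r = 0.981), PPP1R3G, a glycogen-targeting subunit of protein phosphatase 1 (0.971), LOX, lysyl oxidase (0.966), ARID3A (0.96), TMEM45A (0.959), KCTD11 (0.958), ALS2CL (0.957) and EGLN1, the main HIF prolyl hydroxylase (0.954). The libraries share the design of oxygen and PP242, so these values describe the pattern and carry no p-value. By Spearman correlation 2 of these 8 were among the 8 highest, and with total libraries alone 3.

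**Figure D5:**
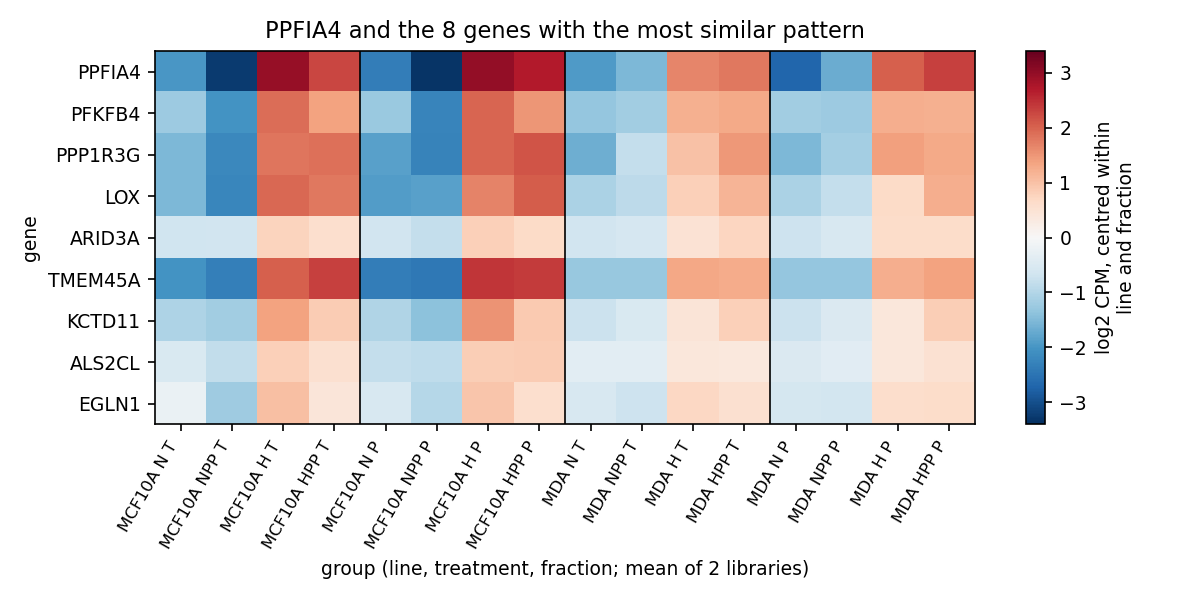
Mean log2 CPM of 2 libraries per group, centred within line and fraction, for PPFIA4 and the 8 genes with the highest correlation; columns are groups ordered by line, fraction and treatment, and red is above and blue below the mean of that line and fraction. All 9 genes are negative in the N and NPP columns and positive in the H and HPP columns, and PPFIA4 spans the widest range, from −3.34 to 2.98.

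The reference targets ranked from 10 (CA9, r = 0.949) to 318 (SLC2A1, a glucose transporter, 0.773). Between them lay BNIP3 at rank 23 (0.932), NDRG1 at 79 (0.884), ADM at 98 (0.868) and VEGFA at 139 (0.845), among others. The other liprins compared did not follow PPFIA4, and PPFIA2 was not among the genes compared. PPFIA3 had r = 0.38 (rank 2577), PPFIBP2 0.351 (rank 2855), PPFIBP1 0.259 (rank 3673) and PPFIA1 −0.205 (rank 8270) among the 12373 genes.

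The genes beside PPFIA4 on chromosome 1 were measured in the same libraries. TMEM183A ends 1643 bp before the start of PPFIA4, and CYB5R1 and ADIPOR1 lie 59216 and 67919 bp before it. In H none of the 3 was called in either line by edgeR's quasi-likelihood test, and their log2FC values lay between −0.31 and 0.27. Of all tested genes 1.27% to 2.29% were called there, so most groups of 3 genes would give no call. In HPP P of MCF10A 22.2% of all tested genes were called. TMEM183A fell in HPP P of MCF10A (log2FC −1.28, SE 0.42, adjusted p = 0.0458), and this call was lost without the 4 libraries low in long transcripts (−0.73, adjusted p = 0.127). After the end of PPFIA4, MYOG at 4389 bp and MYBPH at 89071 bp were at or near 0 and untested, and ADORA1 at 11914 bp passed the filter in MCF10A alone, where it was not called. No annotated gene overlaps PPFIA4 itself.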

How the data were processed

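Per the study's methods, poly(A) RNA was sequenced (TruSeq v2), aligned with STAR and quantified by the authors with RSEM on GRCh38 and GENCODE v24, and the labels name GRCh37 instead. The deposited values are expected counts per gene, here whole numbers. In their own analysis the authors kept protein-coding genes alone. Library totals had a median of 34561484 counts. The p-values rest on the spread between the 2 biological replicates of each group, pooled over all groups in a fit and moderated across genes.

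Genes were filtered with filterByExpr, scaled by TMM and tested with edgeR 4.0.16 (R 4.3.3, quasi-likelihood test, Benjamini-Hochberg adjustment over all genes, adjusted p under 0.05), with 16 libraries per line (13124 and 13510 genes) or all 32 (14298 genes) for comparisons of lines. Intervals are 95%, and with 2 against 2 libraries a permutation test cannot go below p = 0.333. CPM come from the fit of all 32 libraries, and lengths from GENCODE v44. In simulated H versus N data for total mRNA, 5.05% of genes with a log2FC of 1 were recovered in MCF10A and 65.7% in MDA-MB-231. DESeq2 1.42.0, other filters, an adjusted p of 0.10, replicate blocks, a length offset and omitted libraries were alternatives. The members and lists were chosen with earlier results of these data known. The PPFIA4 tests are left out, since each reuses libraries that picked the gene. Replicate numbers paired the total libraries of MCF10A (correlations of deviations of 0.283 to 0.778, 6 of 6 over 0.1). Pairing was partial among its polysomal libraries (3 of 6). In MDA-MB-231 it was partial too (4 of 6 in each fraction, 19 of 28 over all pairs of groups, correlations up to 0.348). The main fit holds no replicate block, and with a block 328 in place of 171 genes were called in H T of MDA-MB-231. The labels give total and polysomal mRNA of one culture the same number. Named genes were all 6 liprins, the called, the most abundant and the largest-changing members of each list, and the 8 genes most like PPFIA4.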

Additional observations from a re-analysis of the deposited data

How the results depend on the processing

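Of 2295 alternative values over 260 results, 2180 kept their side of the threshold or, without a test, kept their direction and stayed within the spread of replicates, and 115 did not. Values of other members that were not called could change sign and still count as kept. Without the libraries low in long transcripts PPFIBP2 in HPP T of MCF10A went from 0.72 to −0.60. PPFIA1 in NPP T of MCF10A went from −0.54 to 0.09, and Te of PPFIBP1 in NPP of MCF10A from 1.13 to −0.21. Counts of called liprins, with PPFIA4 left out, changed by 1 in 22 cases. In HPP T of MCF10A the count of 0 became 1 with a replicate block within fraction (PPFIA1, log2FC −1.11, adjusted p = 0.0283), with a length offset (PPFIA1), at an adjusted p under 0.10 (PPFIA3) and without the libraries low in long transcripts (PPFIBP1). In HPP P of MCF10A it became 1, always PPFIBP1, with the replicate block within fraction (1.88, adjusted p = 0.013), the length offset, only the compared libraries, DESeq2, and without the libraries low in long transcripts, as it did in HPP T against H T under that last alternative. In MDA-MB-231 PPFIBP1 made the count 1 in HPP T with the block within fraction and with only the compared libraries, in HPP P with no filter, the replicate block (0.55, adjusted p = 0.0399), the block within fraction, an adjusted p under 0.10 and DESeq2, and in HPP T against H T with the block within fraction. Leaving out 1 replicate gave 0 to 1 in HPP P and in HPP P against H P of MDA-MB-231. PPFIA1 in N T between lines was called without the libraries low in long transcripts and with only the compared libraries. The causes were not tested.

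The replicate block within fraction changed no other liprin call, and a replicate block for total and polysomal mRNA of one culture, chosen after seeing the data, changed 0 of the liprin calls of Te. With the block within fraction, 438 in place of 202 genes were called in H T of MCF10A. The values of PPFIA4 that changed sign were those of HPP against H in polysomal mRNA of MCF10A (−0.66 to 0.12 when 1 replicate was left out, above 0 without HPP P replicate 2) and in total mRNA of MDA-MB-231 (−0.30 to 0.46, below 0 without H T replicate 2 at −0.15 or HPP T replicate 2), Te in NPP of MCF10A (−0.25 with the length offset, −0.62 without the libraries low in long transcripts, and −0.31 to 0.65 when 1 replicate was left out, below 0 without N P replicate 1 at −0.27 or NPP T replicate 2), Te in H of MCF10A (−0.14 without the libraries low in long transcripts, and −0.14 to 0.75 when 1 replicate was left out, below 0 without N P replicate 1 at −0.10 or H T replicate 2), Te in HPP of MCF10A (−0.22 without those libraries), and the line difference in polysomal mRNA (0.027 without those libraries, and −0.78 to 0.050 when 1 replicate was left out, above 0 without MCF10A N P replicate 1). Omitting the libraries low in long transcripts was chosen after seeing the data and leaves 4 groups of MCF10A with 1 library each, so the calls gained there rest on the spread of other groups. Without HPP T replicate 1 the PPFIA4 value of HPP against H in total mRNA of MCF10A was −1.37, and Te in HPP was 1.36. Calls over all genes moved as well, from 202 to between 212 and 601 in H T of MCF10A over the settings, with 32 to 87 when 1 replicate was left out. With 2 replicates most log2FC of 1 would not be detected in MCF10A (5.05% recovered in simulated H T, against 65.7% in MDA-MB-231), and the normoxic PPFIA4 values rest on counts as low as 5.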
